A study of Homo sapiens with 18 samples.

Results

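The genes described here are 5 SOX transcription factors, SOX2, SOX4, SOX9, SOX12 and SOX13, and 5 factors of lung and endoderm identity, FOXA1, FOXA2, GATA6, NKX2-1 and HNF4A. They were taken by gene symbol from the count tables of the lung cancer lines H1299 and A549, which list 18978 and 20335 genes, and SOX2 and SOX4 are the genes to which most space is given. The H1299 table lists 8 of the 10, without FOXA2 and HNF4A, and the A549 table lists 9, without NKX2-1. Every gene listed for a line has a count of 6 or more in some library. All listed genes of the set passed the low-count filter of their line, and 7 could be tested in both lines.

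RNA sequencing of poly(A) RNA was used to compare cells depleted of YAP or of TAZ, paralogous coactivators that bind TEAD factors and are held in check by the Hippo kinases. H1299, a p53-null line from a lymph node metastasis of a lung carcinoma, was grown in RPMI-1640, and A549, a lung adenocarcinoma line with intact p53, in DMEM. Control siRNA (siControl), or a SMARTpool of several siRNAs to the YAP transcript (siYAP) or to the TAZ transcript (siTAZ), was transfected at 30 nM, and RNA was taken after 48 h, the last 18 h of them without serum. Each of the 6 groups had 3 libraries, 18 in all. Each line had its own medium and its own table, so line, medium and experiment cannot be told apart. The siYAP and siTAZ comparisons of a line share their 3 control libraries, and nothing in the labels says that replicates were separate cultures, so p-values rest on library spread that may be only technical. In bulk RNA, a lower number of cells that express a gene and less of its RNA per cell cannot be told apart.

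SOX proteins bind the minor groove of DNA through an HMG box and act with partner factors to set cell identity. In the developing lung, SOX2 marks the proximal airway and SOX9 the distal tips, SOX4 and SOX12 belong to the SoxC subgroup of progenitor factors, and SOX13 to the SoxD subgroup. FOXA1 and FOXA2 are pioneer factors that open chromatin in endoderm, GATA6 acts in early endoderm and distal lung, NKX2-1 specifies the lung and directs surfactant genes, and HNF4A directs liver and gut genes. Lung adenocarcinomas that lose NKX2-1 are known to take up features of gut and stomach.

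Promoter windows of RefSeq (GRCh38.p14, 250 bases before to 50 after a start) were available for 8 of the 10 genes, with 10 windows in all. They are shown because SOX2 and SOX4 were both called higher under siTAZ in each line and because TEAD factors carry YAP and TAZ to DNA. Whether the windows bear on these changes was not tested. Windows were searched on both strands for GGAATG (TEAD), TGANTCA (AP-1), TGTTTAC (FOX) and AACAAT (SOX). Of 35116 windows of this length, 14% hold the TEAD letters, 7.71% the AP-1 letters, 3.42% the FOX letters and 10.1% the SOX letters. The SOX4 window holds a TEAD match whose first base lies at -178 from the RefSeq start, inside the SOX4 exon as GENCODE 29 draws it. No other window of the set holds the TEAD letters. The SOX12 window and a window of NKX2-1 hold a FOX match, and a window of HNF4A an AP-1 match. The capitals below mark these matches, each with 11 bases on either side, and the SOX2 stretch, which is the 249 bases before its start and 68.7% G or C, has no capitals because none of the 4 motifs is in it. A match describes letters and not a bound site.
SOX4 (chr6:21593562-21593589, plus strand): ctctgtaaattGGAATGaggtcagattt
SOX12 (chr20:325443-325471, plus strand): gggcacctcggTGTTTACacggggcggcc
NKX2-1 (chr14:36519669-36519697, minus strand): aaacttaaaggTGTTTACcttgtcatcag
HNF4A (chr20:44401003-44401031, plus strand): atgagtgcccgTGAGTCAtgatgcctgcc
SOX2 (chr3:181711675-181711923, plus strand): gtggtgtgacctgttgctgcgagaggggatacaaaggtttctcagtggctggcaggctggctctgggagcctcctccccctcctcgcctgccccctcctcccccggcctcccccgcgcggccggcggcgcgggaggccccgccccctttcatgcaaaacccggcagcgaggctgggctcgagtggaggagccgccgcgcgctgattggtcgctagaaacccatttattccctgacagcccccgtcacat

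Libraries held 16.8 to 20.8 M assigned reads in H1299 and 10.7 to 45 M in A549. The targeted genes were lower in every library of their own pool. YAP1 fell by 2.48 on the log2 scale in H1299 and by 1.78 in A549, and WWTR1, which encodes TAZ, fell by 2.38 and by 1.63 (in H1299 by 2.97 without siTAZ replicate 2). The weakest reduction was in H1299 siTAZ replicate 2, which kept 82.6 CPM of WWTR1 against 36.1 and 29.0 CPM in replicates 1 and 3 and 229.2 to 276.3 CPM in the controls. CPM are counts per M assigned reads after TMM scaling, a correction for composition. The other paralogue shifted as well. Under siYAP, WWTR1 was below every control, at 167.1 to 203.0 CPM in H1299. In A549 it was at 153 to 162 CPM under siYAP against 174 to 180 CPM in the controls. YAP1 under H1299 siTAZ was at 96.4 to 105.8 CPM, above the controls at 77.8 to 83.8 CPM. None of these shifts had an adjusted p below 0.05, and YAP1 under A549 siTAZ overlapped its controls. Libraries also varied with their replicate number. In H1299, number 2 was highest for SOX2 and SOX4 within each group, and number 1 stood apart for GATA6. In A549, number 3 stood apart for SOX4, SOX9, SOX13 and FOXA2 but not for SOX2. The lines were checked against lung markers. The surfactant genes SFTPA1, SFTPB and SFTPC and the airway secretory genes SCGB1A1 and SCGB3A2 were listed in neither table, and 3 of 7 alveolar markers were listed in H1299 and 4 of 7 in A549. The summed level of 5 general epithelial genes was 396.1 to 444.0 CPM in the H1299 controls, where CDH1 was not listed, and 4518 to 5805 CPM in the A549 controls. Of 5 leukocyte genes, PTPRC and CD3E were listed in neither table, and the other three summed to 0.688 to 0.954 CPM in the H1299 controls and to 1.13 to 3.58 CPM in the A549 controls.

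In control cells, levels were compared between genes per kilobase of merged exons (CPM per kb). SOX9 led in H1299 at 48.0 CPM per kb, followed by SOX12 at 28.6. SOX2 (8.09), GATA6 (5.64) and SOX4 (4.78) came next, and the ranges of neighbours among these 3 overlapped. SOX13 stood at 2.59 CPM per kb, and FOXA1 (0.168) and NKX2-1 (0.120) were lowest and overlapped. In A549 the order began with SOX12 at 24.0 CPM per kb. FOXA2 (11.1), SOX4 (11.1) and FOXA1 (7.97) came next, and neighbours among these 3 overlapped. SOX9 (6.22), HNF4A (3.89) and SOX13 (3.32) formed the next run of overlapping neighbours, and SOX2 (1.30) and GATA6 (0.882) were lowest, each apart from its neighbours. Both lines had abundant SOX12, whereas SOX9, SOX2, GATA6 and FOXA1 sat at different ranks.

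**Figure D1:**
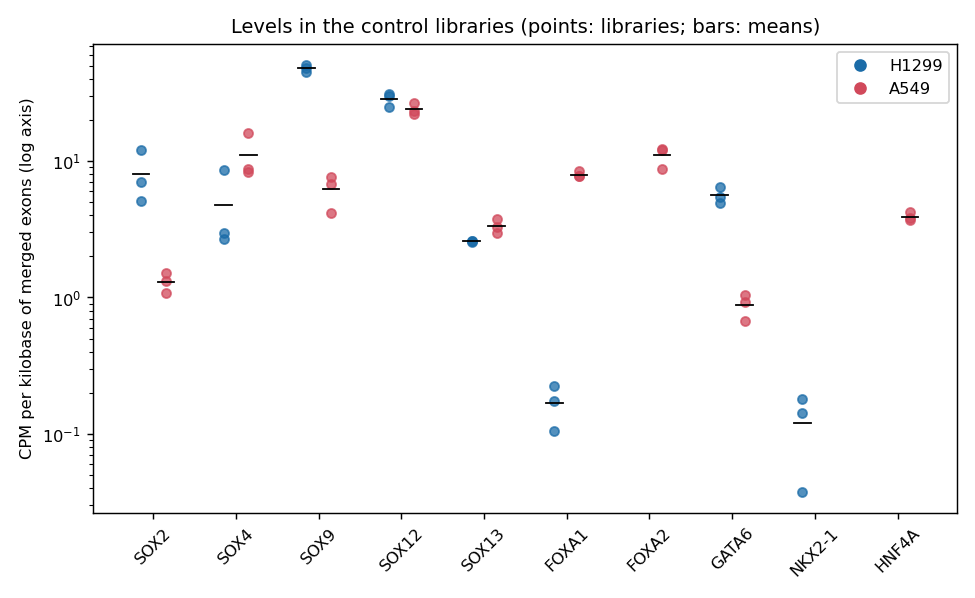
Levels of the 10 genes in the siControl libraries, in CPM per kilobase of merged exons on a log axis. Points are the 3 libraries of each line (blue H1299, red A549) and black bars are group means. SOX9 leads in H1299 at 48.0 and SOX12 in A549 at 24.0, and a gene without points was not listed for that line.

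The H1299 controls were compared with the A549 controls by fitting all 18 libraries together, which left 15816 genes. Tests were quasi-likelihood F tests of edgeR, p-values were adjusted by the Benjamini-Hochberg method, and a gene was called at an adjusted p below 0.05. In this comparison 78.5% of all genes tested were called, 40% higher and 38.5% lower in H1299, so a call was the usual outcome. Of the 7 genes of the set, 6 were called, 3 in each direction. SOX2 was higher in H1299 by 2.35 ± 0.31 (log2, SE), GATA6 by 2.36 ± 0.25 and SOX9 by 2.68 ± 0.09. FOXA1 was 58.1-fold lower in H1299 (log2 difference -5.86 ± 0.19), with 7 to 16 counts per H1299 control library. SOX4 was lower by a log2 difference of -1.46 ± 0.30 (adjusted p = 0.000181) and SOX13 by -0.66 ± 0.07. The SOX4 difference was -2.23 without H1299 control 2, where SOX4 ran high, and -0.86 without all libraries of number 3 (adjusted p = 0.0444). SOX12 differed by -0.06 ± 0.09 (95% interval -0.26 to 0.13). The joint fit has its own scaling, so these differences are not the ratios of the CPM, which were scaled within each line.

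In H1299, depletion of TAZ was accompanied by higher SOX2 and SOX4, and depletion of YAP was not. SOX2 lies on chromosome 3 (181711924 to 181714436, GRCh38). Its level was 12.8, 30.4 and 17.8 CPM in controls 1 to 3, at 13.2, 19.9 and 9.59 CPM under siYAP and at 38.9, 60.0 and 40.7 CPM under siTAZ. Every siTAZ library lay above every control, whereas the siYAP libraries overlapped the controls. SOX2 rose by 1.20 ± 0.28 under siTAZ (adjusted p = 0.0093), and the within-number ratios were 3.05, 1.97 and 2.29. Under siYAP it differed by -0.52 ± 0.30 (adjusted p = 0.249). That decrease passed when the replicate number was kept as a block (-0.50, adjusted p = 0.0162).

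SOX4 lies on chromosome 6 (21592768 to 21598619). Its level was 17.5, 50.8 and 15.7 CPM in the H1299 controls, at 16.6, 29.8 and 14.7 CPM under siYAP and at 87.4, 113.5 and 86.5 CPM under siTAZ. The siTAZ libraries again lay above all controls, including control 2, which ran high among the controls. The rise under siTAZ was 1.78 ± 0.36 on the log2 scale, or 3.43-fold (adjusted p = 0.00407), with within-number ratios of 5.00, 2.23 and 5.50. Number 2 gave the smallest ratio, with the highest control and the highest siTAZ library. Without control 2 the rise was 2.53 (adjusted p = 5.02e-05), and over all leave-outs it ran from 1.49 to 2.53. Under siYAP the difference was -0.46 ± 0.37 (adjusted p = 0.42), with overlapping groups.

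SOX13 (chromosome 1, 204073115 to 204127743) held the tightest values, 19.3, 19.4 and 19.1 CPM in the controls, 18.3, 18.8 and 17.7 CPM under siYAP and 25.9, 24.2 and 26.7 CPM under siTAZ. The siTAZ libraries did not overlap the controls, and SOX13 rose by 0.41 ± 0.09 (adjusted p = 0.00623). The siYAP libraries also lay just below all controls, but the difference of -0.08 ± 0.09 did not pass (adjusted p = 0.604).

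SOX9, the distal lung factor (chromosome 17, 72121020 to 72126420), was 190.8, 198.6 and 177.3 CPM in the H1299 controls, 143.4, 172.3 and 169.4 CPM under siYAP and 181.6, 195.9 and 164.2 CPM under siTAZ. The siYAP libraries were below all controls and the siTAZ libraries overlapped them, and in 3 of 3 numbers the control was the higher under each pool. Neither difference passed without the block, at -0.22 ± 0.10 for siYAP (adjusted p = 0.127) and -0.06 ± 0.10 for siTAZ (adjusted p = 0.665). With the block the siYAP decrease passed (-0.22, adjusted p = 0.0416). SOX12 ranged from 115.3 to 159.4 CPM over the 9 H1299 libraries and differed by -0.02 ± 0.11 under siYAP (95% interval -0.25 to 0.21) and by 0.09 ± 0.11 under siTAZ (-0.14 to 0.32).

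Among the lineage factors in H1299, NKX2-1 was the only gene called under siYAP. NKX2-1 (chromosome 14, 36516392 to 36521149) had 10, 2 and 8 counts in the controls, 19, 21 and 24 under siYAP and 20, 16 and 24 under siTAZ, or 0.119 to 0.573, 0.952 to 1.14 and 0.802 to 1.22 CPM. Neither knockdown group overlapped the controls. NKX2-1 rose by 1.47 ± 0.39 under siYAP (adjusted p = 0.0232) and by 1.42 ± 0.40 under siTAZ (adjusted p = 0.0211). The siYAP call was lost without control 2, control 3, siYAP 1 or siYAP 3 (1.06, 1.58, 1.53 and 1.42, adjusted p = 0.0604, 0.0548, 0.0564 and 0.0785). The siTAZ call was lost without control 2, siTAZ 1 or siTAZ 3 (1.01, 1.38 and 1.30, adjusted p = 0.0599, 0.0562 and 0.0834). At these counts the level stayed far below that of the SOX genes. GATA6 (chromosome 18, 22169443 to 22202528) was 25.6, 19.6 and 21.6 CPM in the controls, 23.4, 16.3 and 17.7 CPM under siYAP and 39.3, 20.5 and 19.7 CPM under siTAZ. The high siTAZ mean came from replicate 1 alone, the groups overlapped, and neither difference passed (-0.22 ± 0.23 and 0.25 ± 0.23). FOXA1 had 7 to 27 counts per library and differed by 0.62 ± 0.38 under siYAP and 0.53 ± 0.39 under siTAZ (adjusted p = 0.287 and 0.351).

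In all, 1 of the 8 genes was called under H1299 siYAP (12.5%), where 16.6% of all genes tested were called and 7.89% called higher, so the share of the set was near the background. Under siTAZ 4 of 8 were called (50%), all higher, where 23.3% of all genes were called and 10.9% were called higher. The median log2 change of the set was -0.15 under siYAP and 0.47 under siTAZ, beside 0.0063 and 0.0082 over all genes. With all libraries of number 1 or of number 3 left out, so that 6 remained, 0 of 8 were called under siTAZ (SOX4 1.59 with an adjusted p of 0.0501, and 1.56 with 0.0752), and without number 2 the count was 4. Under siYAP it was 0 without any of the 3 numbers. Sums of 4 marker lists lay apart from the H1299 controls under a pool. The 3 listed of 7 alveolar genes summed to 206.8 to 268.0 CPM under siYAP against 169.3 to 183.3 in controls. Of 5 basal and squamous genes only KRT15 and NGFR were listed, without TP63, KRT5 and KRT14. These 2 summed to 47.3 to 54.9 CPM under siTAZ against 65.9 to 86.0 in controls. The lower sum does not describe both genes, since KRT15 fell and NGFR rose under siTAZ. The 3 listed of 5 fibroblast genes, without COL1A2 and LUM, summed to 3.48 to 3.78 CPM in controls, 6.56 to 7.98 under siYAP and 5.58 to 6.69 under siTAZ. The 3 listed of 4 endothelial genes, without CDH5, summed to 1.13 to 1.89 CPM in controls, 2.19 to 3.51 under siYAP and 2.01 to 2.74 under siTAZ. Their part in the results was not tested.

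Comparing the pools with each other in H1299, where 11.7% of all genes were called and 6.1% called higher, 3 of 8 were higher under siTAZ than under siYAP (37.5%). SOX4 differed by 2.24 ± 0.36 (adjusted p = 0.00176), SOX2 by 1.72 ± 0.29 (adjusted p = 0.00215) and SOX13 by 0.49 ± 0.09 (adjusted p = 0.00373). NKX2-1, which rose under both pools, differed by -0.05 ± 0.32 between them (95% interval -0.74 to 0.65). GATA6 differed by 0.47 ± 0.23 (adjusted p = 0.209), and with the block by 0.43 (adjusted p = 0.0205). Without the libraries numbered 1 SOX2 and SOX4 passed, and without those numbered 3 only SOX4.

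**Figure D2:**
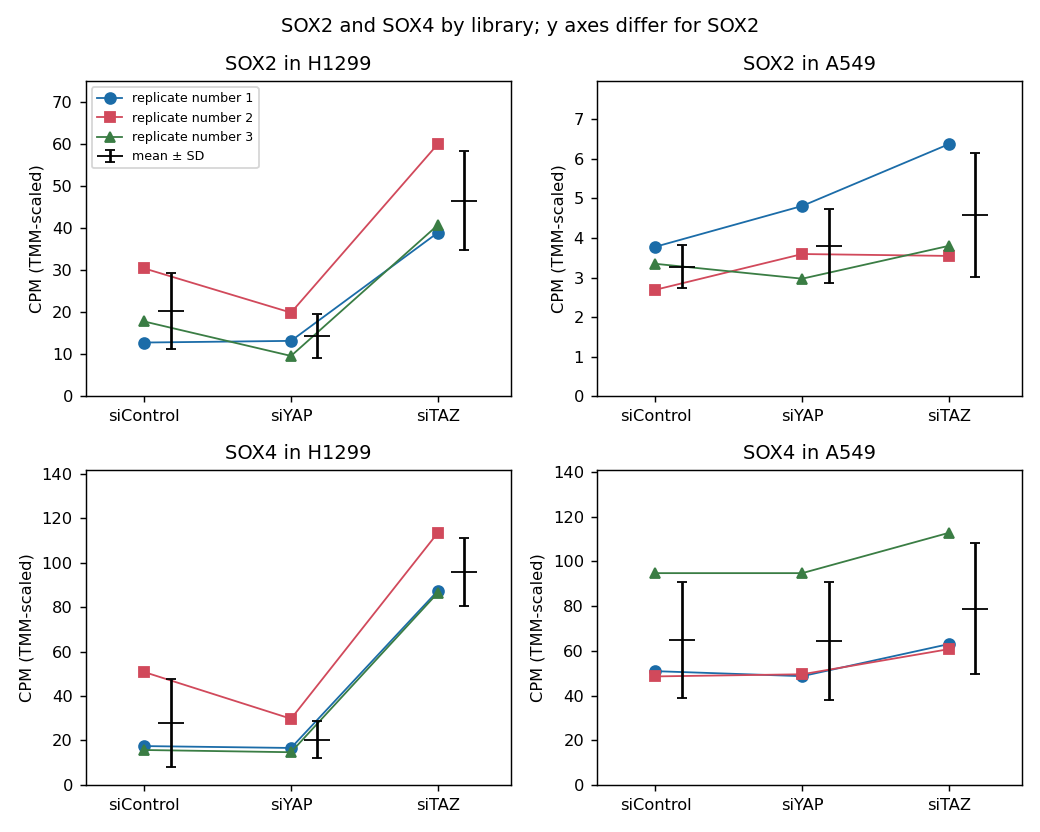
SOX2 (top) and SOX4 (bottom) in every library of H1299 (left) and A549 (right), in TMM-scaled CPM. Coloured points joined by lines are replicate numbers 1 to 3, black bars are mean ± SD (n = 3), and the SOX2 axis is shorter in A549. In H1299 the siTAZ points (SOX2 38.9 to 60.0, SOX4 86.5 to 113.5) lie above all controls, and in A549 SOX4 number 3 stands apart in each group.

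In A549, SOX2, SOX4, SOX9 and FOXA2 rose under siTAZ, each by a log2 change of 0.49 or less. The A549 fit kept the replicate number as a block, as the authors' deposited fold changes for this line do. SOX2 was 3.78, 2.69 and 3.35 CPM in the controls, 4.81, 3.59 and 2.97 CPM under siYAP and 6.37, 3.55 and 3.80 CPM under siTAZ. All groups overlapped, and each siTAZ library was above its same-numbered control, with replicate 1 the highest. SOX2 rose by 0.49 ± 0.14 under siTAZ (adjusted p = 0.018), and the call was lost without control 1, control 2 or siTAZ 1 (0.39, 0.45 and 0.36, adjusted p = 0.157, 0.127 and 0.206). Under siYAP it differed by 0.28 ± 0.15 (adjusted p = 0.305).

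SOX4 was 50.9, 48.6 and 94.8 CPM in the A549 controls, 48.7, 49.5 and 94.8 CPM under siYAP and 63.0, 60.8 and 112.8 CPM under siTAZ. The groups overlapped because number 3 ran high in each, but the siTAZ to control ratio was 1.24, 1.25 and 1.19 for numbers 1 to 3. SOX4 rose by 0.29 ± 0.04 under siTAZ (adjusted p = 6.97e-06). Under siYAP the difference was -0.0014 ± 0.0454, with a 95% interval of -0.09 to 0.09.

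SOX9 was 26.9, 30.2 and 16.4 CPM in the A549 controls, 31.1, 31.8 and 17.3 CPM under siYAP and 33.1, 38.3 and 19.0 CPM under siTAZ. Here number 3 ran low in each group, and the knockdown library was the higher in 3 of 3 numbers under each pool. SOX9 rose by 0.30 ± 0.06 under siTAZ (adjusted p = 0.000356) and differed by 0.11 ± 0.06 under siYAP (adjusted p = 0.316). SOX12 ranged from 101.1 to 122.7 CPM over the 9 libraries and SOX13 from 21.7 to 29.7 CPM. Neither passed: SOX12 differed by -0.04 ± 0.05 and 0.07 ± 0.05, and SOX13 by -0.07 ± 0.06 and 0.10 ± 0.06, under siYAP and siTAZ.

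FOXA2 (chromosome 20, 22581005 to 22585455) was 32.2, 31.6 and 22.9 CPM in the controls, 32.9, 31.5 and 26.5 CPM under siYAP and 37.9, 35.0 and 26.2 CPM under siTAZ. Groups overlapped, with number 3 lowest in each. FOXA2 rose by 0.18 ± 0.06 under siTAZ (adjusted p = 0.0278), a call lost without control 1, control 3, siTAZ 1 or siTAZ 2 (0.14 to 0.18). FOXA1 ranged from 30.7 to 37.3 CPM over the 9 libraries, and HNF4A from 26.8 to 31.9 CPM. HNF4A differed by 0.12 ± 0.06 under siTAZ (adjusted p = 0.161) and FOXA1 by 0.10 ± 0.06 (adjusted p = 0.278). GATA6 was low, at 2.64 to 4.11 CPM, and differed by -0.17 ± 0.15 and -0.13 ± 0.15. FOXA2 and HNF4A, at 22.9 to 37.9 CPM in A549, were not listed in H1299, and NKX2-1, at 2 to 24 counts in H1299, was not listed in A549.

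Under A549 siYAP 0 of 9 genes were called, where 5.68% of all genes were called, 0 had an unadjusted p below 0.05, and DESeq2 also called 0. Under siTAZ 4 of 9 were called (44.4%), all higher, where 13.3% of all genes were called and 7.21% called higher. The median log2 change of the set under siTAZ was 0.12, beside 0.0028 over all genes. Without the libraries numbered 3 the count was 3 (SOX2, SOX4 and SOX9), without those numbered 1 or 2 it was 2 (SOX4 and SOX9), without the block it was 0, and DESeq2 called 2 (SOX4 and SOX9). Between the pools, 2 of 9 were higher under siTAZ (22.2%, where 7.04% of all genes were called and 4.52% called higher), SOX4 by 0.30 ± 0.04 (adjusted p = 1.42e-05) and SOX9 by 0.19 ± 0.06 (adjusted p = 0.0423). The SOX9 call was lost without siYAP 2, siYAP 3, siTAZ 1 or siTAZ 2 (0.12 to 0.21).

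**Figure D3:**
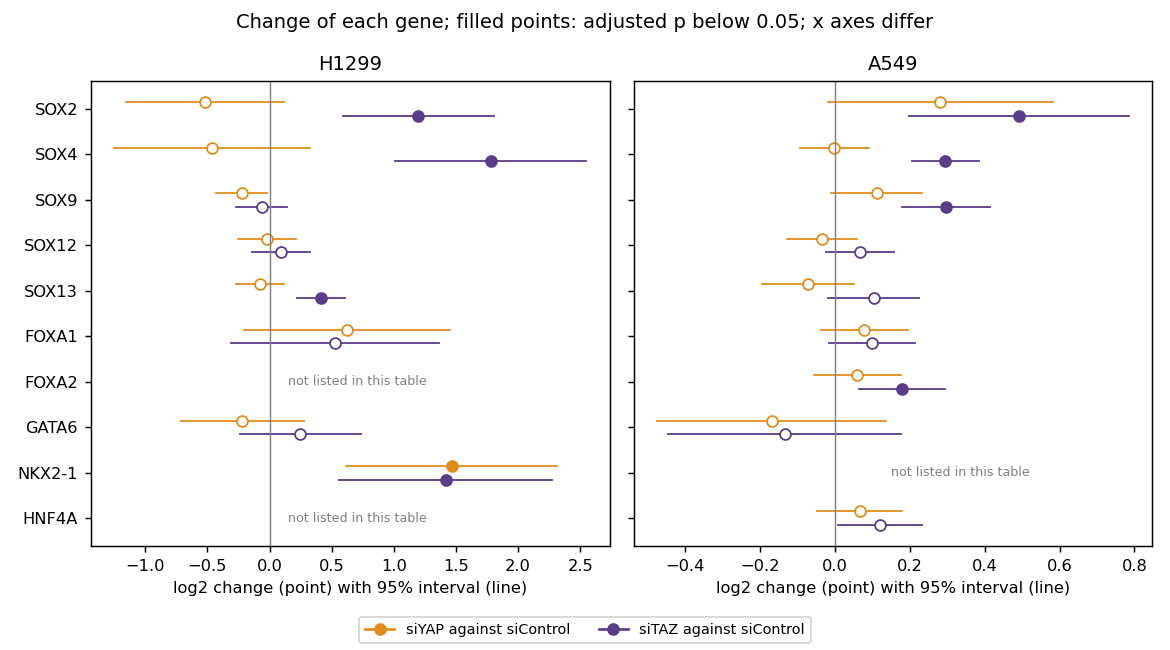
Log2 change of each gene against siControl in H1299 (left) and A549 (right), with 95% intervals as lines. Orange is siYAP and purple siTAZ, filled points have an adjusted p below 0.05, and the x axes differ between the panels. SOX2 and SOX4 are filled for siTAZ in both lines, at 1.20 and 1.78 in H1299 and at 0.49 and 0.29 in A549.

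Whether the lines differed in their response was tested as an interaction. For siTAZ, 1 of 7 genes was called (14.3%), where 5.96% of all genes were called and 2.73% called higher in H1299. The siTAZ effect on SOX4 was larger in H1299 by 1.48 ± 0.41 (95% interval 0.63 to 2.33, adjusted p = 0.039). This call rested on small margins: DESeq2 gave 1.48 with an adjusted p of 0.0744, and the adjusted p passed 0.05 on leaving out H1299 control 1 (0.109), control 3 (0.0804), H1299 siTAZ 3 (0.0699) or any A549 library (0.0546 to 0.105). SOX2 differed by 0.71 ± 0.43 (adjusted p = 0.332), so its larger mean rise in H1299 did not pass a test of the difference. SOX9 moved down in H1299 and up in A549 in every same-numbered pair, and the line difference was -0.36 ± 0.12 for siTAZ (adjusted p = 0.0697) and -0.34 ± 0.12 for siYAP (adjusted p = 0.123). With the block in each line, the siTAZ differences of SOX2 (0.74, adjusted p = 0.0262), SOX9 (-0.36, adjusted p = 0.0135) and SOX13 (0.31, adjusted p = 0.0374) also passed. For siYAP, 0 of 7 were called where 2.26% of all genes were, 1 (SOX9) had an unadjusted p below 0.05, and DESeq2 called 0. With the block in each line 2 passed for siYAP, SOX2 (-0.77, adjusted p = 0.0356) and SOX9 (-0.34, adjusted p = 0.03).

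The rest of the SOX family was sparse. Of 14 other SOX genes, 7 were listed in each table, 3 passed the filter in H1299 and 7 in A549. In H1299, SOX5, a SoxD relative of SOX13, rose from 1.05 ± 0.11 to 2.42 ± 0.74 CPM under siTAZ (1.19 ± 0.27, adjusted p = 0.00776), the only call of 3 there. SOX18, an endothelial factor of the SoxF subgroup, rose from 1.36 ± 0.02 to 2.74 ± 0.86 CPM under siYAP (1.00 ± 0.30, adjusted p = 0.0374), also the only call of 3. The count under siTAZ stayed at 1 on leaving out any single library and was 0 without all of number 1 or of number 3, and under siYAP it was 0 without any one control, siYAP 1 or siYAP 3. SOX15 was at 1.65 to 3.93 CPM over the H1299 libraries and was called under neither pool. In A549, SOX21, a SoxB gene related to SOX2, rose from 1.05 ± 0.35 to 1.69 ± 0.74 CPM under siTAZ (0.65 ± 0.22, adjusted p = 0.0476), the only call of 7, with overlapping groups (0.685 to 1.39 CPM in the controls, 1.04 CPM in the lowest siTAZ library). No SOX gene outside the set was called there in any of the 12 fits with libraries left out, by DESeq2, with no filter, without the block or with only the 2 groups compared. Under A549 siYAP 0 of 7 were called. Over all genes, 16.6% and 23.3% were called under siYAP and siTAZ in H1299, and 5.68% and 13.3% in A549. Counts out of 3 or 7 genes cannot be told apart from these shares. SOX6, SOX7, SOX8, SOX15, SOX17 and SOX18 were each at or below 3.80 CPM in every A549 library. In both lines the SOX transcripts outside the set thus stayed at a few CPM, far under SOX12 in counts.

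Of 39 other lung and endoderm lineage factors, 19 were tested in H1299 and 30 in A549. Under H1299 siTAZ 4 were higher and 1 lower, with a median log2 change of 0.46, and the 5 calls of 19 were near the 23.3% called over all genes. Leaving out libraries gave 1 to 7 calls (3 without control 3 or siTAZ 1), and the block gave 8. FOXP2, a forkhead factor of the distal lung, rose from 3.22 ± 0.47 to 6.75 ± 0.76 CPM (1.07 ± 0.17, adjusted p = 0.00131), and FOXP1 (0.75), GATA3 (0.88) and IRX3 (0.48) also rose. NFIB, which takes part in lung maturation, fell by 0.64 on the log2 scale. Under H1299 siYAP, where 16.6% of all genes were called, HOXA5 (0.67) and ETV4 (0.34) rose and KLF4 fell by 0.35, and leaving out libraries gave 0 to 5 calls (0 without control 1, siYAP 1 or siYAP 3). Under A549 siTAZ, TBX3, a T-box factor of lung branching, rose from 27.9 ± 1.3 to 36.5 ± 2.3 CPM (0.39 ± 0.06, adjusted p = 6.1e-06) and ONECUT2, a liver and endoderm factor, from 15.5 ± 2.2 to 20.0 ± 2.6 CPM (0.40 ± 0.07, adjusted p = 0.000149). KLF4 (0.30) and ETV4 (0.15) also rose, NFIB fell by 0.27 and GATA3 fell by 0.34. These 6 calls of 30 stood beside 13.3% over all genes and were 2 to 5 with libraries left out (2 without siTAZ 2, 3 without control 1 or siYAP 3), 3 by DESeq2 and 0 without the block. The siTAZ effect on GATA3 was higher in H1299 by 1.22 ± 0.27 (adjusted p = 0.0146). Under A549 siYAP 0 of 30 were called, where 5.68% of all genes were called. Except for FOXP2, TBX3 and ONECUT2, the genes of this paragraph were named after their values were seen.

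Lung products did not move as a body. Of 32 lung epithelial genes, 9 were tested in H1299 and 14 in A549. In H1299 siYAP, NAPSA (1.20), ABCA3 (0.45) and LPCAT1 (0.47), all genes of alveolar type 2 cells, rose. LAMP3, another marker of these cells, was tested and not called, and SFTPA1, SFTPB, SFTPC and SFTPD were not listed in H1299. CAV1, the caveolin of alveolar type 1 and many other cells, went from 281.7 ± 41.8 CPM in the H1299 controls to 181.5 ± 4.5 under siYAP and 171.2 ± 3.8 under siTAZ and fell by 0.63 and 0.72 on the log2 scale. Under H1299 siTAZ, LPCAT1 fell by 0.56, the basal keratin KRT15 fell by 0.60 and NGFR rose by 1.28. In A549 the gel-forming mucin MUC5AC rose from 25.3 ± 9.6 CPM to 36.2 ± 14.2 under siYAP and 38.0 ± 17.5 under siTAZ (0.55 ± 0.06 and 0.60 ± 0.06), and MUC5B rose by 0.31 ± 0.05 and 0.40 ± 0.05. SPDEF, a factor of mucous cells, rose by 0.27 under siTAZ, where CAV1 fell by 0.40. Under siYAP and siTAZ, 4 and 4 of 9 were called in H1299 (16.6% and 23.3% of all genes) and 2 and 4 of 14 in A549 (5.68% and 13.3%). Leaving out libraries gave 0 to 4 and 0 to 5 calls in H1299 (1 without siYAP 1 and 2 without control 1 under siYAP, 2 without siTAZ 3 under siTAZ) and 1 to 3 and 3 to 4 in A549 (1 without control 2 under siYAP), where the fit without the block called 0 and 0. Apart from CAV1, MUC5AC and MUC5B, these genes were named after their values were seen.

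Of 26 products of gut, liver and stomach, several of them known targets of HNF4A and FOXA factors, 17 were tested in A549. Of these, 8 were called under siYAP and 10 under siTAZ, all higher, and 9 and 7 were not called. Over all genes 5.68% and 13.3% were called, 2.5% and 7.21% called higher. The list had medians of 0.25 and 0.24 beside 0.0038 and 0.0028 over all genes. TTR, the liver carrier transthyretin, was 1.99, 1.95 and 5.86 CPM in the controls, 3.39, 2.60 and 9.43 CPM under siYAP and 3.63, 3.50 and 12.9 CPM under siTAZ. Number 3 was high in each group, and each knockdown library exceeded its same-numbered control. TTR rose by 0.58 ± 0.14 (adjusted p = 0.00889) and 0.98 ± 0.13 (adjusted p = 1.08e-06). CDH17, an intestinal cadherin, was 155.6, 142.4 and 141.3 CPM in the controls and 218.3, 209.0 and 195.3 CPM under siTAZ, without overlap, and rose by 0.51 ± 0.04 (adjusted p = 2.43e-11). Under siYAP it was 198.4, 175.3 and 156.8 CPM and rose by 0.27 ± 0.04. AGR2, a secretory protein folding factor, rose by 0.39 ± 0.04 and 0.43 ± 0.04. FGB (0.55 and 0.37), AMBP (0.34 and 0.39), TM4SF4 (0.34 and 0.27), APOH (0.23 and 0.19) and ANXA13 (0.22 and 0.17) were called under both pools, and CPS1 (0.13 and 0.28) and FGA (0.15 and 0.24) passed under siTAZ. CDX2, SERPINA1, TFF1, AFP, VIL1, LGALS4 and FGG were called under neither. DESeq2 called 5 and 8, the fit without the block called 0 and 0, and leaving out libraries gave 3 to 8 and 5 to 10. Under siYAP the count was 3 without siYAP 2 and 5 without control 2, and under siTAZ it was 5 without siTAZ 1 and 6 without control 2 or siTAZ 2. Only CPS1 and SERPINA1 of this list were tested in H1299. CPS1 rose under siYAP (1.10) and siTAZ (1.26), and SERPINA1 rose under siTAZ (0.61). These were 1 and 2 calls of 2 genes under siYAP and siTAZ, where 16.6% and 23.3% of all genes were called. With libraries left out the H1299 count was 0 to 2 under each pool. Of 5 other alternatives, 2 kept the siYAP count and 5 the siTAZ count.

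**Figure D4:**
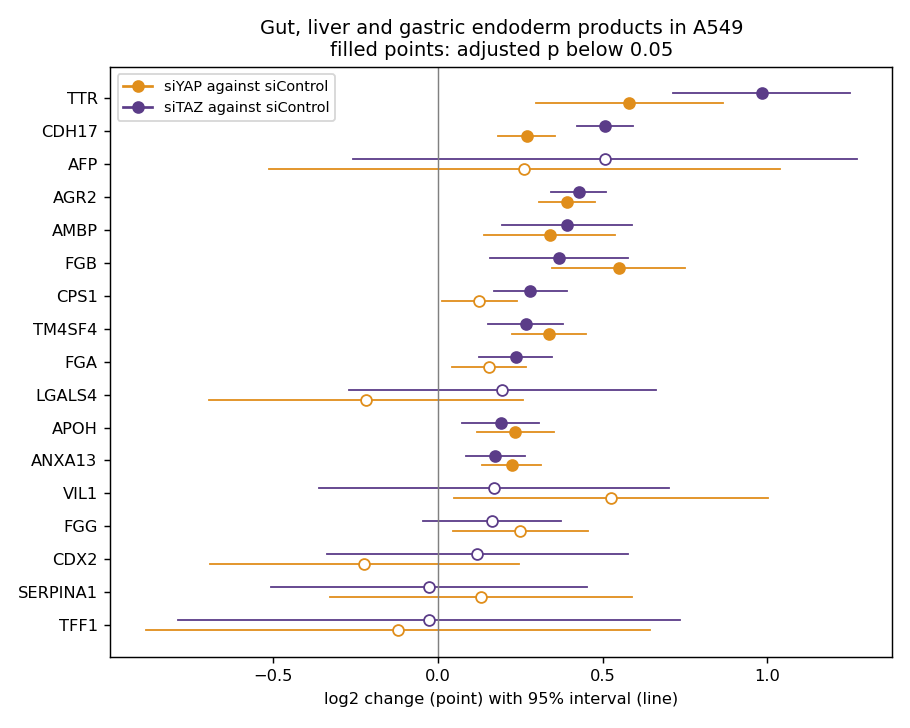
Log2 change against siControl of the 17 gut, liver and gastric endoderm products tested in A549, with 95% intervals. Orange is siYAP, purple siTAZ, and filled points have an adjusted p below 0.05. Of the 17, 8 are filled for siYAP and 10 for siTAZ, all to the right of 0, with TTR highest at 0.98.

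Genes that overlap the set, or lie within 50 kb of it, were examined because the use of strand in counting is not stated. SOX9-AS1, an antisense transcript that overlaps SOX9 (chromosome 17, 72034107 to 72237203), went from 0.814 CPM in the H1299 controls to 1.89 under siYAP and 1.77 under siTAZ and rose by 1.23 ± 0.38 (adjusted p = 0.0402) and 1.13 ± 0.38 (adjusted p = 0.0468). Its level was far below that of SOX9, but reads of the shared stretch cannot be assigned to either with certainty. SOX2-OT, which overlaps SOX2 on the same strand, was at 0.136 to 0.249 CPM in H1299 group means and was not tested. Near SOX12, ZCCHC3 fell by 0.28 under H1299 siYAP and rose by 0.22 under A549 siTAZ, and NRSN2 rose by 0.33 under H1299 siYAP. Near HNF4A, TTPAL fell by 0.39 under H1299 siTAZ. No other listed neighbour was called in a comparison with the controls.

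The genes most like SOX2 and SOX4 were found by Pearson correlation of log2 CPM over the 9 libraries of a line, among 10485 to 10514 protein-coding genes at 5 CPM or more. The libraries share siRNA groups and replicate numbers, so r is a description. In H1299, SOX2 was most like WDR48 (r = 0.980), GLIS3 (0.974) and PLEKHG1 (0.972), and SOX4 most like PLEKHG1 (0.991), ANK1 (0.987) and KDM6B (0.980). SOX4 ranked 6 for SOX2 with r = 0.966. Replicate number means were not removed in H1299, where number 2 was highest for both genes in each group. This r and that of A549 below are thus not like measures. PLEKHG1 stood at 7.35 to 13.9 CPM in the controls, 6.50 to 10.1 under siYAP and 17.8 to 26.1 under siTAZ. KDM6B, a histone H3 lysine demethylase, stood at 31.6 to 45.5 CPM in the controls and 48.8 to 55.0 under siTAZ. In A549, after removal of the mean of each replicate number, SOX2 was most like CEP350 (0.985), FBXW9 (0.979) and WDR72 (0.970), and SOX4 most like IGF2R (0.996), CACNA2D1 (0.994) and FAT1 (0.990). There SOX2 and SOX4 had r = 0.721, and SOX4 ranked 729 for SOX2. SOX2, at 3.27 to 4.57 CPM in A549 group means, was itself below the 5 CPM limit. Its r would place it at 1147 for SOX4. CACNA2D1 rose under siTAZ in both lines, by 0.43 in A549 and 0.57 in H1299. A high r did not stand for a change of like size. Under H1299 siTAZ, WDR48 differed by 0.19 and was not called, whereas GLIS3, PLEKHG1, ANK1 and KDM6B were called higher. Under A549 siTAZ, CEP350 (0.09), FBXW9 (0.29), WDR72 (0.08) and IGF2R (0.11) were not called, and FAT1 (0.12) was.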

How the data were processed

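Per the submitters' processing notes, reads were trimmed with cutadapt, aligned with STAR 2.4.2a and analysed with DESeq2 on GRCh38. How reads were counted, with which annotation and whether by strand, is not given in the sources used. The authors deposited, for each line, a table of raw counts by gene symbol with log2 fold changes of their own. Only the counts were analysed, and 36 further columns of values per library were not used. The deposited log2 fold changes served to choose the design: a DESeq2 refit came within 0.001 of the authors' deposited table for 100% of genes in H1299 without a replicate term, and for at least 99.99% in A549 only when such a term was included.

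Counts were fitted with edgeR 4.0.16 (R 4.3.3) after filterByExpr by group and TMM scaling, over 15775 genes in H1299, 16008 in A549 with the replicate number as a block, and 15816 of the 17094 shared genes in a joint fit for line differences, with the block in A549 only. The quasi-likelihood F test was used with Benjamini-Hochberg adjustment over all genes tested and calls at an adjusted p below 0.05. Values are log2 change ± SE, or CPM ± SD (n = 3 per group), with 95% intervals from the fit. The scripts were tested on simulated data. Replicates of a group were not copies (chi-square per degree of freedom 5.97 to 27.5). Replicate numbers were taken to pair libraries for the ratios and blocks, since their labels share a prefix per number. Deviations from group means correlated at 0.108 to 0.383 in H1299 and 0.384 to 0.729 in A549 between libraries of the same number. Between different numbers the range was -0.324 to 0.16 in H1299, which overlaps that of the same number. In A549 it was -0.55 to 0.279, without overlap. The main H1299 fit did not use the number. The labels do not say what a number shares. GENCODE 29 gave positions and merged exon lengths and held 97.9% of symbols in each table. RefSeq gave promoter windows.

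The genes and lists were chosen with earlier results of these data known. Beside the 10 genes, the rule named YAP1 and WWTR1, the 3 called genes of each list with the smallest adjusted p, SOX genes that passed the filter, the 3 genes most like SOX2 and SOX4 per line and called neighbours. Alternatives were the block or none, RLE size factors, no filter, DESeq2 1.42.0, fitting only the groups compared, and leaving out libraries.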

Additional observations from a re-analysis of the deposited data

Results flagged for a closer look

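The effect of siTAZ on SOX4 differed between the lines by 1.48 ± 0.41 on the log2 scale (H1299 minus A549) in a test of the difference itself (edgeR's quasi-likelihood F test, adjusted p = 0.039). SOX4 was higher than its same-numbered control in 3 of 3 H1299 and 3 of 3 A549 siTAZ libraries, with ratios of 5.00, 2.23 and 5.50 in H1299 and of 1.24, 1.25 and 1.19 in A549. Without the H1299 control numbered 2, whose SOX4 level was 50.8 CPM, the difference was 2.25. Of 21 fits with libraries left out, 14 lost the call, with values down to 1.19 (without H1299 control 3, adjusted p = 0.0804). DESeq2 (1.48, adjusted p = 0.0744) and the fit with no block (1.47, adjusted p = 0.241) lost it too.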

How the results depend on the processing

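Of 1410 values of single genes under alternatives, 1263 kept their direction and their side of the threshold, 66 reversed, and 0 of those were called in both settings. RLE size factors, no filter and fitting only the groups compared moved no count of called genes of the set by over 1.5 times. With the replicate number as a block, the set had 3 calls under H1299 siYAP, and 2 and 4 in the line differences for siYAP and siTAZ. Between the H1299 pools the block gave 4 calls in place of 3, GATA6 being added, and under H1299 siTAZ 4 as without it. Without the block, A549 siTAZ had 0 calls against siControl and 0 against siYAP, and the siTAZ line difference 0. DESeq2 gave 0 for H1299 siYAP, where it set no adjusted p for NKX2-1, 2 for A549 siTAZ, 1 for A549 siTAZ against siYAP and 0 for the siTAZ line difference. Over all genes, calls under siYAP, under siTAZ and between the pools were 4461, 5606 and 3399 in H1299 with the block (2625, 3680 and 1846 without), and 1, 1 and 2 in A549 without it (909, 2134 and 1127 with it; 363, 1156 and 515 by DESeq2). For line differences they were 1712 and 2797 with the block in each line, 13 and 60 with none, and 751 for siYAP by DESeq2, beside 358 and 943. The cause was not tested.

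Leaving out libraries gave 0 to 1 calls for H1299 siYAP, 0 to 4 for siTAZ and 1 to 3 between the pools, 2 to 4 for A549 siTAZ and 1 to 3 between the pools, and 0 to 3 for the siTAZ line difference. Uncalled log2 changes that crossed 0 were, in H1299, SOX4 (-0.83 to 0.29) and SOX12 (-0.14 to 0.057) under siYAP, GATA6 (-0.15 to 0.44) and SOX9 (-0.12 to 0.017) under siTAZ, and FOXA1 (-0.49 to 0.20) and NKX2-1 (-0.17 to 0.14) between the pools. In A549 they were SOX12 (-0.096 to 0.030), SOX4 (-0.031 to 0.013) and FOXA2 (-0.0025 to 0.13) under siYAP, GATA6 (-0.26 to 0.080) under siTAZ, and FOXA1 (-0.057 to 0.069) and GATA6 (-0.091 to 0.29) between the pools. Among line differences they were SOX12 (-0.12 to 0.16), SOX13 (-0.031 to 0.047), GATA6 (-0.21 to 0.13) and SOX4 (-0.81 to 0.31) for siYAP, SOX12 (-0.10 to 0.12) and GATA6 (-0.033 to 0.56) for siTAZ, and SOX12 (-0.15 to 0.028) between controls. The siYAP line difference of SOX13 (-0.0022) was 0.0070 without the block, 0.0013 with RLE and 0.0012 by DESeq2. NKX2-1 and FOXA1 in H1299 had 27 counts or fewer per library, which limits their precision.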

Other observations

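SOX2 is best known as a partner of pluripotency factors. Of a list of 11 such factors and stem-cell markers (PROM1 and ALDH1A1 among the markers), 6 were tested in H1299. MYC, a growth-promoting transcription factor, was 134.6, 134.8 and 142.0 CPM in the controls, 77.5, 104.1 and 112.2 CPM under siYAP and 69.1, 69.9 and 72.9 CPM under siTAZ. Neither knockdown group overlapped the controls, and MYC fell by 0.49 under siYAP (adjusted p = 0.0112) and by 0.96 under siTAZ (adjusted p = 0.000334). LIN28B, which blocks let-7 maturation, went from 76.2 ± 9.8 CPM to 104.5 ± 19.0 under siYAP, where it rose by 0.46 (adjusted p = 0.0282), and to 41.6 ± 3.6 under siTAZ, where it fell by 0.87 (adjusted p = 0.00106). TFCP2L1 fell by 0.82 and 0.99. In H1299 siTAZ 3 of 6 were lower and 0 higher, with a median of -0.91, where 23.3% of all genes were called. Leaving out libraries gave 1 to 5 calls (the lowest without all of number 3), and the block gave 5. Under H1299 siYAP the 4 calls, beside 16.6% over all genes, were 0 to 6, with 1 without control 1, siYAP 1 or siYAP 3 and 2 without control 2 or control 3. In A549, of 7 tested, KLF4 rose by 0.30 and ALDH1A1 fell by 0.15 under siTAZ (both named after their values were seen), and 0 were called under siYAP. These 2 siTAZ calls were 0 to 2 with libraries left out, 0 without control 1 or siTAZ 2, 0 without the block and 1 by DESeq2. Over all genes, 13.3% were called under A549 siTAZ and 5.68% under A549 siYAP. The siTAZ effect on MYC differed between the lines by -0.87 ± 0.13 (adjusted p = 0.00196).

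Of 14 neural and neuroendocrine genes, 6 were tested in each line. In H1299, the neural POU factor POU3F2 rose under siTAZ from 8.85 ± 0.62 to 13.5 ± 2.2 CPM (0.61 ± 0.14, adjusted p = 0.00861). The synaptic vesicle gene SYP was 21.5, 22.3 and 14.5 CPM in the controls and 8.64, 12.0 and 5.18 CPM under siTAZ, without overlap, and fell by 1.17 (adjusted p = 0.0143). NEUROD1 rose under siYAP from 0.312 ± 0.252 to 0.876 ± 0.167 CPM (1.48 ± 0.45, adjusted p = 0.0393). Leaving out libraries gave 0 to 4 calls under H1299 siTAZ, 1 without control 1 or siTAZ 3, and 0 to 1 under siYAP, where NEUROD1 was the only call and the count was 0 without control 1, control 3, any siYAP library, siTAZ 1 or siTAZ 3, or by DESeq2. In A549 0 of 6 were called under either pool, where 5.68% of all genes were called under siYAP and 13.3% under siTAZ. In H1299 the list had 1 call of 6 under siYAP and 2 of 6 under siTAZ, beside 16.6% and 23.3% over all genes. Counts out of 6 genes cannot be told apart from these shares.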
